A study of Rattus norvegicus with 26 samples.

Results

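Genes of glycolysis, of lactate handling and of the citrate cycle were examined in the dentate gyrus of rats given doxorubicin, with or without the senolytic ABT-263. The set was chosen by name as 38 genes, and 36 of them were listed by gene name in the deposited values. All 36 averaged 5 normalized counts or more and were tested among 15595 genes, out of 17910 gene identifiers in the table. The other two, Slc2a3, a glucose transporter of neurons, and Ogdh, a subunit of the 2-oxoglutarate dehydrogenase complex, were not analysed here.

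Male F344 rats were 6 months old, and all RNA came from the dentate gyrus of 1 hemisphere per rat, with 1 library per rat. The Veh group (n = 10) received vehicle, the Dox group (n = 8) received doxorubicin weekly over 4 weeks at 2 mg/kg, and Dox + ABT rats (n = 8) received that doxorubicin course and ABT-263 by gavage at 12 mg/kg on 5 consecutive days every other week. Doxorubicin is a DNA-damaging chemotherapy drug, and ABT-263 (navitoclax) inhibits proteins of the BCL-2 family and removes senescent cells. The Veh rats were part of a larger study of brain aging, the tissue was taken after behavioral testing, and no group received ABT-263 alone.

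Glycolysis splits glucose into pyruvate in the cytosol, and lactate dehydrogenase interconverts pyruvate and lactate, which monocarboxylate transporters carry across cell membranes. The pyruvate dehydrogenase complex commits pyruvate to the citrate cycle in mitochondria, and pyruvate dehydrogenase kinases switch that complex off. In brain, neurons depend heavily on oxidative metabolism, while astrocytes are more glycolytic, store glycogen and release lactate.

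Estimated depth was 10166100 to 24326700 reads per library. The libraries themselves fell along a main axis, found with the members left out, that carried 28.4% of the variance within groups. At its widest inner gap the axis parted 16 libraries, in which 86 ribosomal protein genes held 0.645% to 1.27% of the signal, from 10 libraries in which they held 1.34% to 2.16%. Of the lower-ribosomal libraries 4 were from Veh, 5 from Dox and 7 from Dox + ABT, and of the higher-ribosomal ones 6, 3 and 1, so this split was unevenly spread over the groups. Veh 10 and Veh 11 had the 2 scores farthest toward the lower-ribosomal end of the axis and the shallowest depth. Of the 7 granule cell markers, 6 were listed and measured, whereas only 2 of 5 choroid plexus markers reached a mean of 5 and their list summed to 9.69 to 348 normalized counts. In these bulk libraries, fewer cells of a type and less RNA per cell cannot be told apart.

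Across the 36 members the differences between groups were small. Relative to Veh, 25 members were lower and 11 higher in Dox, with a median log2 difference of -0.06 beside 0.00 for all tested genes. In Dox + ABT 28 members were lower and 8 higher than in Veh, with a median of -0.13 beside 0.00 for all tested genes. Between Dox and Dox + ABT, 25 members were higher and 11 lower in Dox, with a median of 0.06. Under quantile normalization the Dox + ABT median moved to -0.03, with 16 members higher, and the sign of the Dox minus Dox + ABT median turned to -0.02. Within the lower-ribosomal libraries the direction in Dox relative to Veh turned, with 21 members higher, 15 lower and a median of 0.07 (-0.08 within the higher-ribosomal libraries, with 11 higher and 25 lower), and the Dox + ABT median was -0.02, with 16 higher and 20 lower.

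At an unadjusted p under 0.01, the threshold the study used, 1 of 36 members differed between Dox and Veh, and it was lower in Dox, against 2.87% of all tested genes (1.02% higher and 1.85% lower). In Dox + ABT relative to Veh, 3 members passed, 1 higher and 2 lower, against 7.84% of all tested genes (3.89% higher and 3.95% lower). Between Dox and Dox + ABT, 0 members passed in limma, against 4.03% of all tested genes (2.32% higher and 1.71% lower in Dox), and 3 members had an unadjusted p under 0.05. No member reached an adjusted p under 0.05 in the 3 comparisons, and the smallest were 0.168, 0.109 and 0.253. The members' shares of calls therefore lay near the background of each comparison.

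**Figure D1:**
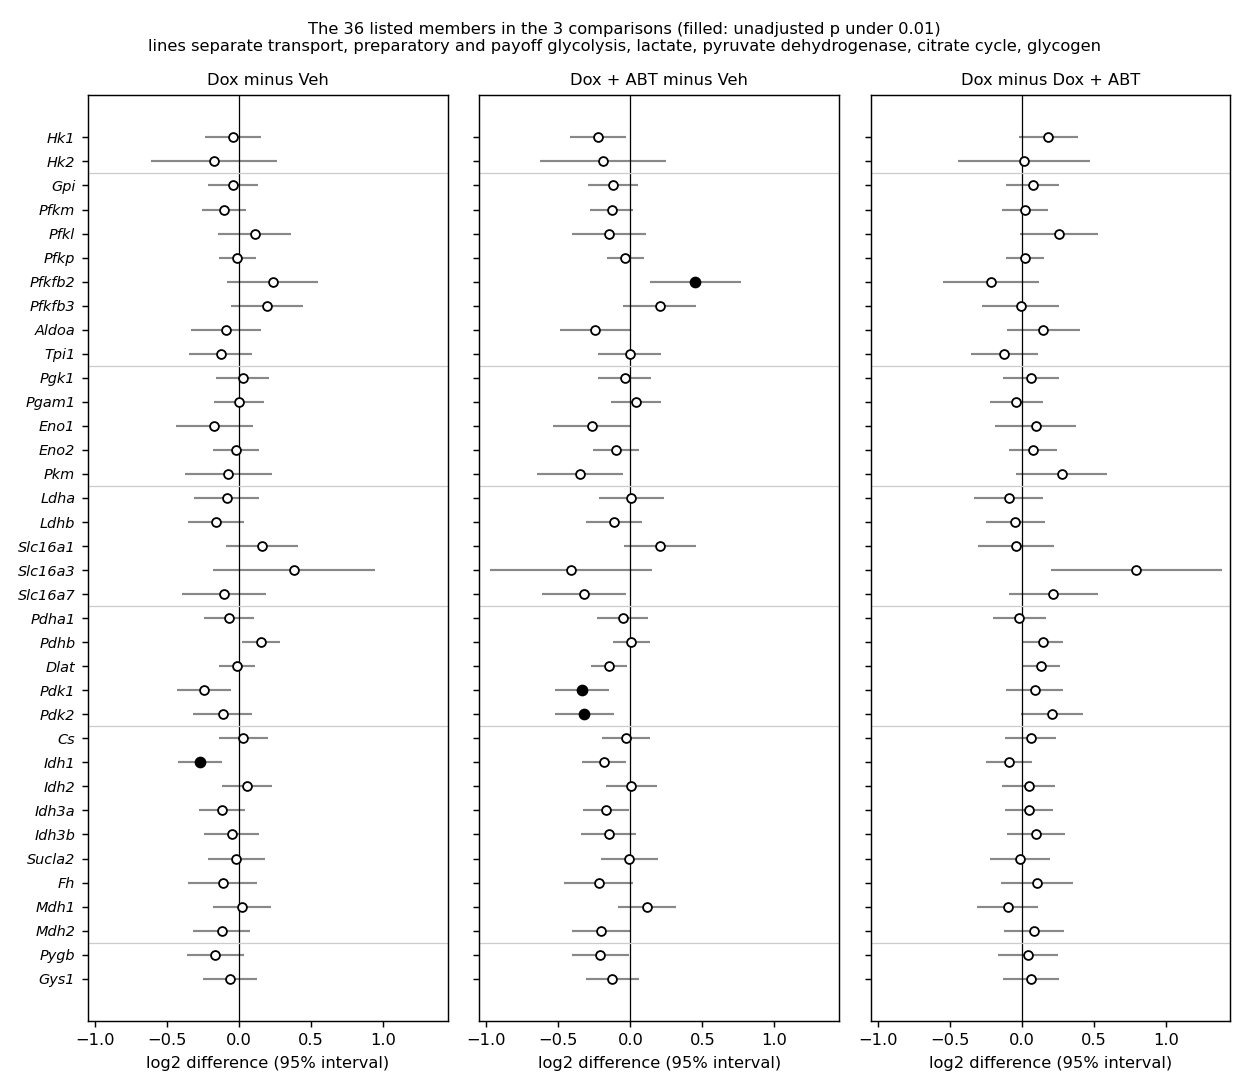
Log2 differences of the 36 listed members, on the log2(normalized count + 1) scale, with 95% intervals, in the 3 comparisons (Veh n = 10, Dox n = 8, Dox + ABT n = 8). Filled points mark the 4 differences with an unadjusted p under 0.01 (Idh1 in the first panel, and Pdk1, Pdk2 and Pfkfb2 in the second), and gray lines separate the roles.

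The intervals bounded most members closely. For Dox minus Veh, the 95% interval of 15 of 36 members lay within a 1.2-fold change either way and that of 34 within 1.5-fold, the exceptions being Hk2 and Slc16a3. For Dox + ABT minus Veh, 11 and 31 members lay within those bounds. For Dox minus Dox + ABT, 15 and 34 did, and the interval of Slc16a3 was the only one to pass 2-fold.

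The entry of glucose into glycolysis was represented by Hk1 and Hk2, the hexokinases that phosphorylate it. Neither passed in any comparison. Hk1 was -0.23 ± 0.09 (log2 difference ± SE) in Dox + ABT relative to Veh (p = 0.0239, adjusted p = 0.165). Hk2 spanned 104 to 499 normalized counts in Dox and 165 to 301 in Veh, and the upper end in Dox was rat Dox 5, the next highest Dox rat being at 269.

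Of the 8 genes of the preparatory steps, Pfkfb2 alone passed, in Dox + ABT relative to Veh. Pfkfb2 (ENSRNOG00000004162) encodes a bifunctional enzyme that sets the level of fructose-2,6-bisphosphate, the activator of phosphofructokinase. It ranged from 248 to 525 normalized counts in Veh (median 306), from 276 to 537 in Dox (median 433) and from 338 to 588 in Dox + ABT (median 483). All 8 Dox + ABT rats lay above the Veh median and 3 lay above every Veh rat, but the groups overlapped.

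Pfkfb2 was 1.37-fold higher in Dox + ABT than in Veh (log2 difference 0.45 ± 0.15 SE, p = 0.00664, adjusted p = 0.117). This gene also had the lowest value among the members for the difference between the 2 kinds of library, at -0.65 (log2, higher-ribosomal minus lower-ribosomal, within groups). In Veh the 6 higher-ribosomal libraries held 248 to 321 and the 4 lower-ribosomal libraries 436 to 525, without overlap. With the kind of library in the fit the Pfkfb2 difference was 0.15 ± 0.09 (p = 0.109), and within the lower-ribosomal libraries it was 0.06 ± 0.10 (p = 0.535), so the call did not remain. It was also lost without any single one of 10 rats (Veh 1, 2, 3, 4, 9 or 12, or Dox + ABT 3, 5, 6 or 12), with differences of 0.40 to 0.44 and p of 0.0105 to 0.0173.

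The deposited table split Pfkfb2 into 5 rows, of which the first held 50.0% and the second 48.2% of its signal. Both were higher on average in Dox + ABT, at 254 ± 61.2 and 215 ± 34.2 normalized counts (SD, n = 8), than in Veh, at 175 ± 56.6 and 171 ± 52.8 (SD, n = 10). Pfkfb3, another enzyme of that family, was 0.20 ± 0.12 in Dox relative to Veh (p = 0.123) and 0.20 ± 0.12 in Dox + ABT (p = 0.109). The 3 phosphofructokinase subunits did not pass in any comparison, nor did Gpi, Aldoa and Tpi1. Pfkp was bounded most closely of the 3 subunits, at -0.01 ± 0.06 in Dox and -0.03 ± 0.06 in Dox + ABT relative to Veh.

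None of the 5 payoff-phase genes, which yield ATP and pyruvate, passed. Pkm, the pyruvate kinase of brain, had the largest difference of them, -0.35 ± 0.15 in Dox + ABT relative to Veh (p = 0.0238, adjusted p = 0.165). Its values ran from 7917 to 16397 normalized counts in Veh (median 11271) and from 6439 to 11108 in Dox + ABT (median 9449), and the groups overlapped. All 8 Dox + ABT rats lay below the Veh median, and 5 of 10 Veh rats lay above every Dox + ABT rat. In the lower-ribosomal libraries Pkm held 7917 to 9929 in Veh (median 9343, n = 4) and 6439 to 11068 in Dox + ABT (median 9217, n = 7). The higher-ribosomal Veh libraries held 9454 to 16397 (n = 6). In Dox relative to Veh, Pgam1 was 0.00 ± 0.08, Eno2 was -0.02 ± 0.08 and Pgk1 was 0.03 ± 0.09.

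Lactate dehydrogenase differed little in either subunit. Ldha, the subunit that dominates in glycolytic tissue, was -0.08 ± 0.11 in Dox and 0.01 ± 0.11 in Dox + ABT relative to Veh. Ldhb, the subunit typical of oxidative tissue, was -0.16 ± 0.10 and -0.11 ± 0.10. The log2 ratio of Ldha to Ldhb within a rat averaged -1.19 among the Veh rats (SD 0.23, n = 10), -1.11 among those given doxorubicin alone (SD 0.23, n = 8) and -1.06 among those also given ABT-263 (SD 0.20, n = 8), and the Dox and Veh ratios gave an exact permutation p of 0.491 (two-sided).

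Slc16a3 had the widest interval of the members in all 3 comparisons. This gene, which encodes MCT4, the lactate exporter of glycolytic cells, was also the member with the lowest values, measured at 13.9 to 36.1 normalized counts in Dox (median 22.7), at 8.03 to 26.6 in Dox + ABT (median 12.3) and at 5.77 to 29.7 in Veh (median 22.6). All 8 Dox rats lay above the Dox + ABT median, and 3 lay above every Dox + ABT rat.

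The Slc16a3 difference, 0.80 ± 0.29 for Dox minus Dox + ABT, narrowly missed the threshold (p = 0.0105, adjusted p = 0.253). Relative to Veh it was 0.38 ± 0.28 in Dox and -0.41 ± 0.28 in Dox + ABT. It passed with a pseudocount of 5, under quantile normalization, in a fit of those 2 groups alone, and without Veh 5, Dox 9 or 13 or Dox + ABT 2 or 4 (0.80 to 0.93, p from 0.00325 to 0.00865). At this level each value rested on few reads.

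Slc16a1, which encodes the transporter MCT1 of astrocytes, oligodendrocytes and endothelium, and Slc16a7, which encodes the neuronal MCT2, did not pass. Their log2 ratio within a rat, Slc16a1 to Slc16a7, averaged 1.62 among the Veh rats (SD 0.31, n = 10), 1.88 among those given doxorubicin alone (SD 0.37, n = 8) and 2.14 among those also given ABT-263 (SD 0.44, n = 8). The Dox + ABT and Veh ratios differed by 0.53, with an exact permutation p of 0.00910 (two-sided) and an adjusted p of 0.242 over the 27 ratio tests. With rats permuted within the 2 kinds of library the difference was 0.30 (exact p = 0.115).

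**Figure D2:**
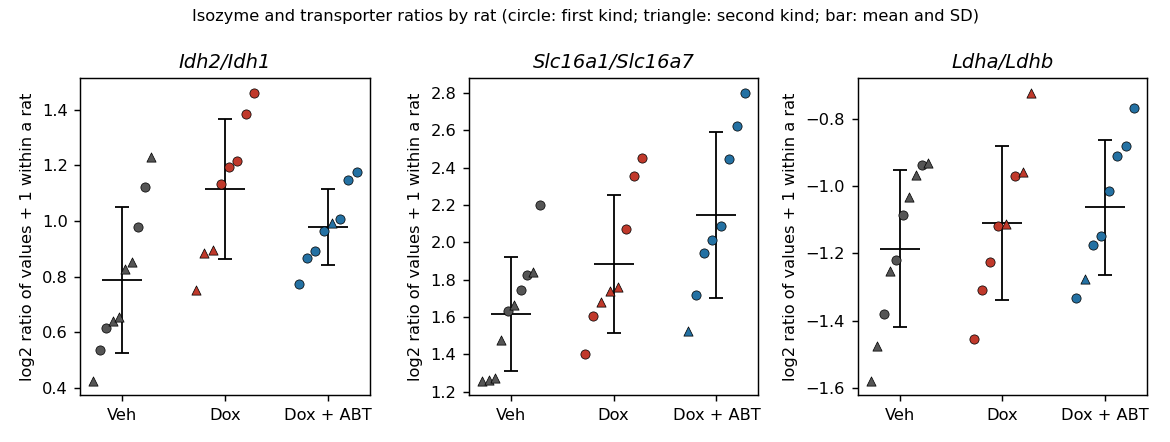
Log2 ratios of related genes within each rat (Veh n = 10, Dox n = 8, Dox + ABT n = 8), each point a rat, with the group mean and SD as bars and the kind of library as marker shape. In the order of the axis the Idh2/Idh1 means are 0.79, 1.12 and 0.98 and the Slc16a1/Slc16a7 means 1.62, 1.88 and 2.14, and all groups overlap.

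The 2 members that passed as lower in Dox + ABT than in Veh, among 28 that were lower, encode pyruvate dehydrogenase kinases. Pdk1 (ENSRNOG00000001517), a kinase that inactivates the complex and a known target of the hypoxia-inducible factor, ranged from 482 to 768 normalized counts in Veh (median 600.0), from 444 to 588 in Dox (median 521) and from 409 to 566 in Dox + ABT (median 476). All rats of both Dox-treated groups lay below the Veh median, and 6 of 10 Veh rats lay above every Dox + ABT rat. Pdk1 fell by 0.33 ± 0.09 on the log2 scale in Dox + ABT (p = 0.00108, adjusted p = 0.109), which is a level 0.793 times that in Veh. In Dox it was -0.24 ± 0.09 (p = 0.0129, adjusted p = 0.369), passing without Veh 5, 6, 10 or 11 or Dox 7 (p from 0.00441 to 0.00991), and Dox and Dox + ABT differed by 0.09 ± 0.10 (p = 0.358).

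Pdk2 (ENSRNOG00000004172), another kinase of the complex, ranged from 1231 to 1968 normalized counts in Veh (median 1563), from 1032 to 1890 in Dox (median 1436) and from 1007 to 1527 in Dox + ABT (median 1231). All 8 Dox + ABT rats lay below the Veh median, and 5 of 10 Veh rats lay above every Dox + ABT rat. Pdk2 fell by 0.32 ± 0.10 on the log2 scale in Dox + ABT (p = 0.00334, adjusted p = 0.110), and without rat Dox + ABT 3 the difference was -0.28 ± 0.10 (p = 0.0106). In Dox it was -0.11 ± 0.10 (p = 0.271). The ratio of Pdk1 to Pdk2 within a rat differed by -0.01 between Dox + ABT and Veh (exact permutation p = 0.857, two-sided).

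Both kinases differed by kind of library in Veh. There Pdk1 held 482 to 543 in the 4 lower-ribosomal libraries and 569 to 768 in the 6 higher-ribosomal ones, and Pdk2 held 1231 to 1368 and 1510 to 1968, without overlap in either gene. In Dox the kinds overlapped, at 444 to 556 and 517 to 588 for Pdk1 and at 1334 to 1890 and 1032 to 1497 for Pdk2. With the kind of library in the fit, the Dox + ABT minus Veh differences were -0.22 ± 0.08 for Pdk1 (p = 0.0133) and -0.24 ± 0.10 for Pdk2 (p = 0.0238), and neither passed. Within the lower-ribosomal libraries, where 7 Dox + ABT and 4 Veh rats could be compared, they were -0.13 ± 0.10 and -0.15 ± 0.09. Between Dox and Dox + ABT, Pdk2 differed by 0.21 ± 0.11 over all rats (p = 0.0581) and did not pass, whereas in the lower-ribosomal libraries it was higher in Dox, by 0.32 ± 0.09 (p = 0.00144, adjusted p = 0.0597).

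Markers of several cell types differed in the contrast that gave these kinase calls and that of Pfkfb2. Of the granule cell, astrocyte and microglial lists, C1ql2 (-0.46 ± 0.12), Aldh1l1 (-0.47 ± 0.14) and Csf1r (-0.48 ± 0.14) each fell in Dox + ABT relative to Veh. They were the only markers of their lists to pass. The granule cell markers split into 3 higher and 3 lower (median -0.01), and 4 of 6 astrocyte markers were higher (median 0.10). All 6 microglial markers had values below 0, while the 5 neuron markers, none of which passed, lay on both sides at -0.53 to 0.25 and each had p under 0.05. No oligodendrocyte marker passed. The microglial list summed to 2773 to 4638 normalized counts among the Dox + ABT rats and 3133 to 5444 among the Veh rats, which overlapped. The part of these markers in the member differences was not tested.

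**Figure D3:**
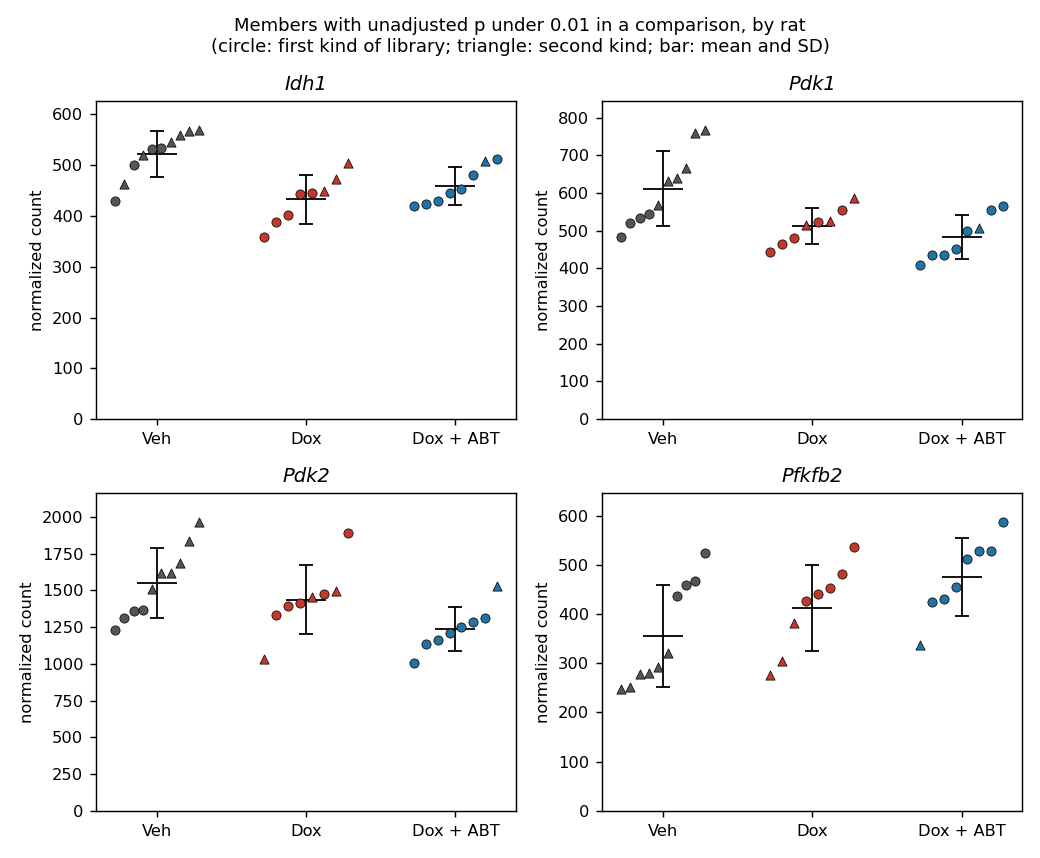
Normalized counts of Idh1, Pdk1, Pdk2 and Pfkfb2 in each rat, by group (Veh n = 10, Dox n = 8, Dox + ABT n = 8), with bars for the mean and SD; circles are lower-ribosomal and triangles higher-ribosomal libraries. In Veh the circles and triangles of Pfkfb2, Pdk1 and Pdk2 do not overlap, whereas those of Idh1 do.

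The promoters of the 4 members that passed are shown because they are the sequences upstream of the genes on which the comparisons turn. Each run is the 250 bases before the start of the gene in the RefSeq annotation of GRCr8, which is not the rn6 build the reads were aligned to: chr3:77113264-77113513 (plus strand), chr10:80483913-80484162 (minus strand), chr9:74049475-74049724 (minus strand) and chr13:44726972-44727221 (minus strand). Capitals mark ACGTG or GCGTG on either strand, the core letters of the element bound by hypoxia-inducible factors.
Pdk1: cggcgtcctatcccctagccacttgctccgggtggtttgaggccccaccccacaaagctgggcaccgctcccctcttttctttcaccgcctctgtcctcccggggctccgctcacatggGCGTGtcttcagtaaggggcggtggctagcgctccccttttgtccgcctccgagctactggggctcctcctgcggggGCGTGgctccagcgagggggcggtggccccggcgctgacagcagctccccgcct
Pdk2: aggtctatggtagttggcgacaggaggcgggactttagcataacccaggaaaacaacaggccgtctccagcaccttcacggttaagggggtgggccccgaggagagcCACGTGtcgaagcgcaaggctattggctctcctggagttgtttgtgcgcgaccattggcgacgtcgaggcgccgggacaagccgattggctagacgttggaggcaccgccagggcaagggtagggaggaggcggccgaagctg
Idh1: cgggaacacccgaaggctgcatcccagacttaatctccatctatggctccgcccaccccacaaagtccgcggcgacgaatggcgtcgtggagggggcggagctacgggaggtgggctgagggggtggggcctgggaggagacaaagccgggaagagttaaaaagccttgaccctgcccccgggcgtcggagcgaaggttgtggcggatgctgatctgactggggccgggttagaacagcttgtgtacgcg
Pfkfb2: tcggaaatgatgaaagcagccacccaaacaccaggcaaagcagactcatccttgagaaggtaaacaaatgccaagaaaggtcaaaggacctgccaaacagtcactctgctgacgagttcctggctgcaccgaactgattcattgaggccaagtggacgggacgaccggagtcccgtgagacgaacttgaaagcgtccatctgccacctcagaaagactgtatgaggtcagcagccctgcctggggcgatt
Pdk1 held 2 GCGTG, Pdk2 held 1 CACGTG, which reads ACGTG on both strands, and Idh1 and Pfkfb2 held no such letters in this window. ACGTG or GCGTG stood in 36.7% of all 33469 promoters of the same length and in those of 22 of the 34 listed members that had a promoter in the table. CACGTG stood in 5.59% of all promoters and in those of 5 members. GGGCGG, the GC box, stood in 30.5% of all promoters and in those of 24 members, among them 2 copies each in Pdk1 and Idh1. These matches describe letters only, and the table of all promoters also covers genes not measured here.

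The subunits of the complex itself did not pass. Pdhb, a subunit of the E1 enzyme, ranged from 1137 to 1361 normalized counts in Dox (median 1298), from 1015 to 1255 in Veh (median 1179) and from 996 to 1349 in Dox + ABT (median 1158). In Dox 6 of 8 rats lay above every Veh rat, but the difference was small, at 0.16 ± 0.06 (p = 0.0217, adjusted p = 0.432). Its first row, with 76.5% of the signal, was 925 ± 153 in Dox (SD, n = 8) and 930 ± 116 in Veh (SD, n = 10), and its second row was 360 ± 151 and 225 ± 121.

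Dlat, the E2 acetyltransferase, had the smallest coefficient of variation of the members in Veh, 5.38%, and ranged from 678 to 809 there (median 740), from 669 to 793 in Dox (median 732) and from 595 to 755 in Dox + ABT (median 692). The Dox + ABT values reached lower than those of both other groups, with 3 of 8 rats below every Veh rat. Dlat was -0.15 ± 0.06 in Dox + ABT relative to Veh (p = 0.0217, adjusted p = 0.160) and 0.13 ± 0.06 in Dox relative to Dox + ABT (p = 0.0494). Pdha1 was -0.07 ± 0.09 in Dox and -0.05 ± 0.09 in Dox + ABT relative to Veh.

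In the citrate cycle list, 1 of the 9 listed genes passed. Idh1 (ENSRNOG00000015020) encodes the cytosolic, NADP-dependent isocitrate dehydrogenase, which lies outside the mitochondrial cycle and supplies NADPH. It ranged from 430 to 570 normalized counts in Veh (median 532), from 358 to 504 in Dox (median 445) and from 419 to 512 in Dox + ABT (median 449). All 16 rats given doxorubicin lay below the Veh median, and 7 of 10 Veh rats lay above every rat of the Dox group.

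Idh1 fell by 0.27 ± 0.07 on the log2 scale in Dox (p = 0.0010, adjusted p = 0.168), a level 0.828 times that in Veh. In Dox + ABT it was -0.18 ± 0.07 (p = 0.0194, adjusted p = 0.153), and Dox minus Dox + ABT was -0.09 ± 0.08 (p = 0.268). The Idh1 call in Dox remained with the kind of library in the fit (-0.24 ± 0.07, p = 0.00135), with the ribosomal share in the fit (-0.24 ± 0.07, p = 0.00145), without Veh 10 and 11 (-0.27 ± 0.08, p = 0.00199) and within the lower-ribosomal libraries (-0.29 ± 0.10, p = 0.00768). Within the higher-ribosomal libraries, with 3 Dox and 6 Veh rats, it was -0.18 ± 0.10 (p = 0.110).

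Idh2, the mitochondrial counterpart of Idh1, was 0.05 ± 0.09 in Dox relative to Veh. The log2 ratio of Idh2 to Idh1 within a rat averaged 0.79 among the Veh rats (SD 0.26, n = 10) and 1.12 among the Dox rats (SD 0.25, n = 8), a difference of 0.33 with an exact permutation p of 0.0179 (two-sided) and an adjusted p of 0.242. Permuted within the 2 kinds of library, that difference was 0.28 (exact p = 0.0325, adjusted p = 0.293). Of the 27 ratio tests, 0 reached an adjusted p under 0.05 and 2 had an exact permutation p under 0.05.

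Some markers of glia differed in the same contrast as Idh1. Of 6 astrocyte markers, 3 were lower in Dox than in Veh at p under 0.01, as were 3 of 6 microglial and 2 of 6 oligodendrocyte markers. The other 3 astrocyte markers (Gja1, S100b and Slc1a3) were at 0.03 to 0.07, microglial C1qa was at 0.18 ± 0.15, and none of these 4 passed. The astrocyte list summed to 41060 to 57282 normalized counts in Dox, 47920 to 81872 in Veh and 51503 to 70533 in Dox + ABT. The part of this in the Idh1 difference was not tested.

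Cs, which opens the cycle as citrate synthase, Sucla2, a subunit of succinyl-CoA synthetase, and Mdh1, the cytosolic malate dehydrogenase, each lay within 0.12 of 0 in both comparisons with Veh. Idh3a, a subunit of the NAD-dependent enzyme, was -0.17 ± 0.08 in Dox + ABT (p = 0.0354), and Mdh2, the mitochondrial malate dehydrogenase, was -0.21 ± 0.10 (p = 0.0442). Idh3b and Fh, the fumarase, did not pass either. Of the glycogen genes, Pygb, the brain glycogen phosphorylase, was -0.16 ± 0.10 in Dox and -0.21 ± 0.10 in Dox + ABT relative to Veh (p = 0.0981 and 0.0386), and Gys1, glycogen synthase, was -0.06 ± 0.09 and -0.13 ± 0.09.

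The 2 Veh libraries at the end of the axis affected the number of members called. Without Veh 10 and Veh 11, a choice made after seeing the data, 9 members passed in Dox + ABT relative to Veh, 1 higher and 8 lower, among 19.5% of all tested genes. Both were among the 4 lower-ribosomal Veh libraries, so leaving them out made the kinds of library still more unevenly spread over the groups. The treatment and the kind of library are therefore harder to tell apart in this setting. The 8 lower members were Pdk1, Pdk2, Pkm, Idh3a, Mdh2, Aldoa, Eno1 and Idh3b, with adjusted p from 0.00796 for Pdk1 to 0.0490 for Idh3a, and the higher one was Pfkfb2 (0.56 ± 0.15, adjusted p = 0.0155). In Dox relative to Veh, 3 members passed, all lower (Idh1, Pdk1 and Eno1), among 8.48% of all tested genes. With libraries weighted by their fit to their group (limma's arrayWeights), 11 members passed in Dox and 16 in Dox + ABT relative to Veh and 3 between Dox and Dox + ABT, among 20.2%, 34.0% and 10.3% of all tested genes. Those weights were 0.34 to 0.79 in the lower-ribosomal Veh libraries and 0.67 to 2.99 in the higher-ribosomal ones. In Dox + ABT they were 0.85 to 2.09 in the lower-ribosomal libraries and 0.61 in the higher-ribosomal one. With the kind of library in the fit, by contrast, 0 members passed in Dox + ABT relative to Veh (limma), among 1.37% of all tested genes.

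Across all 26 rats, 26 members were higher and 10 lower in the higher-ribosomal libraries, with a median log2 difference of 0.14 beside 0.01 for all tested genes. The members' differences between the kinds ran from -0.65 for Pfkfb2 to 0.61 for Slc16a3, while the 5th and 95th percentiles of all tested genes were -0.65 and 0.71. Pkm (0.38), Eno1 (0.36) and Aldoa (0.33) were among the members higher in those libraries. The kind of library and the Dox + ABT group were strongly tied, since 7 of 8 Dox + ABT rats had lower-ribosomal libraries.

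**Figure D4:**
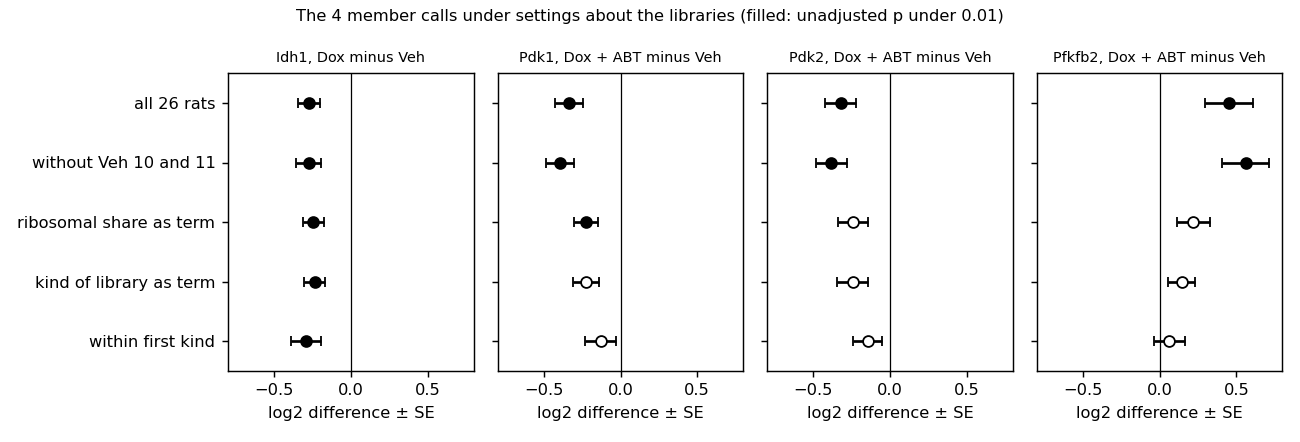
Log2 difference ± SE of the 4 member calls with all 26 rats, without Veh 10 and 11, with the ribosomal share or the kind of library as a term in the fit, and within the 16 lower-ribosomal libraries. Filled points have an unadjusted p under 0.01; Idh1 keeps its call in all 5 settings, and Pfkfb2 moves from 0.45 to 0.06.

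Other genes of the same pathways, 61 in 6 lists, gave 0 calls in Dox relative to Veh in limma, against 2.87% of all tested genes, while 10 had an unadjusted p below 0.05. For Dox + ABT relative to Veh, 1 was higher and 4 were lower, against 7.84% of all tested genes in either direction. Between Dox and Dox + ABT, 4 were higher and 3 lower in Dox, against 4.03%. Under no comparison did one reach an adjusted p under 0.05, and the smallest was 0.0675. These lists held the only pathway genes that passed between the 2 groups given doxorubicin.

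Pgam2, the muscle form of phosphoglycerate mutase, showed the clearest separation of them. It ranged from 70.5 to 148 normalized counts in Dox (median 92.5), from 40.7 to 69.2 in Dox + ABT (median 58.1) and from 56.1 to 103 in Veh (median 73.6). The Dox and Dox + ABT groups did not overlap. Pgam2 was 1.68-fold higher in Dox than in Dox + ABT (0.74 ± 0.16) and fell by 0.46 ± 0.15 in Dox + ABT relative to Veh (p = 0.00451). The latter did not pass with the kind of library in the fit (-0.44, p = 0.0121) or within the lower-ribosomal libraries (-0.28, p = 0.129).

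Slc2a1, which encodes the glucose transporter GLUT1 of endothelium and astrocytes, was 0.47 ± 0.15 in Dox relative to Dox + ABT (p = 0.00295, adjusted p = 0.186), with 1401 to 2518 normalized counts in Dox, 889 to 1658 in Dox + ABT and 1072 to 1797 in Veh. Ddit4, a stress-induced inhibitor of mTORC1, was 0.52 ± 0.17, and Pdk4, a pyruvate dehydrogenase kinase induced by fasting and glucocorticoids, was 1.02 ± 0.37 at 17.2 to 109 normalized counts in Dox and 10.2 to 25.7 in Dox + ABT. Within the lower-ribosomal libraries these 4 remained higher in Dox than in Dox + ABT, at 0.64 for Pgam2, 0.63 for Slc2a1, 0.77 for Ddit4 and 1.43 for Pdk4, each with p under 0.01. The red cell marker genes summed to 2415 to 90336 normalized counts in Dox and 2457 to 8330 in Dox + ABT, and their part in these differences was not tested.

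Lower in Dox than in Dox + ABT were Suclg2, a subunit of succinyl-CoA synthetase (-0.34 ± 0.09), and Me2, a mitochondrial malic enzyme (-0.23 ± 0.08). All 8 Dox rats lay below the Dox + ABT median in both genes. With the kind of library in the fit Suclg2 still passed between Dox and Dox + ABT, and Me2 had p = 0.0148. Within the lower-ribosomal libraries neither passed, at -0.24 for Suclg2 (p = 0.0177) and -0.27 for Me2 (p = 0.0134). Glial markers differed in this contrast too, with 5 of 6 oligodendrocyte and 5 of 6 astrocyte markers lower in Dox. The astrocyte marker Aqp4 passed (-0.45 ± 0.13), and the neuron marker Rbfox3 was higher in Dox by 0.61 ± 0.21. The neuron list as a whole did not follow Rbfox3, with 2 of 5 markers higher and 3 lower in Dox (median -0.06). The oligodendrocyte list summed to 46145 to 70854 normalized counts with doxorubicin alone and 49380 to 104825 with ABT-263 added. Their part in the Suclg2 and Me2 differences was not tested.

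In Dox + ABT relative to Veh, Tkt, the transketolase of the pentose phosphate pathway, fell by 0.49 ± 0.13 (p = 0.000544), and Sdhb, a subunit of succinate dehydrogenase, fell by 0.32 ± 0.11 (p = 0.00882). With the kind of library in the fit the differences were -0.27 for Tkt (p = 0.00483) and -0.11 for Sdhb (p = 0.150). Within the lower-ribosomal libraries the corresponding values were -0.13 and -0.01, and neither passed.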

How the data were processed

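Poly(A) RNA libraries from 26 rats were sequenced on an Ion Proton by the authors, who aligned the reads to rn6 with STAR 2.5.3a in Partek Flow. The deposited values are a normalized signal, counts divided by the authors' Median Ratio factors, in 24012 rows named by gene. Rows of a gene were summed here. Whole reads could not be recovered (75.2% to 79.2% of low values of genes with 1 row, and 32.2% to 41.8% of those with several, were whole multiples of 1 read within 0.02), so no count test was run, although a count test had been planned for raw counts. Depth, 10166100 to 24326700 reads, was estimated from the same steps.

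Groups came from the labels. Genes with a mean of at least 5 were tested on log2(value + 1) in R 4.3.3 with limma 3.58.1 (variance trend, 3 groups in 1 fit, two-sided), with Benjamini-Hochberg adjustment over 15595 genes. Fold changes are on that scale, which understates changes of low genes. Ratios within rats were compared by exact permutation over 43758 or 12870 splits and adjusted over 27 tests. The kind of library was taken from the first principal component of deviations from group means, at the widest gap leaving 5 libraries on each side. Values are given in every group for members with p under 0.01 and for the 3 smallest p in each comparison, and other pathway genes are named where p was under 0.01, except for some that are not reported here. The fits and permutation tests were tested on simulated data. The members, lists and tests were chosen with earlier results of these data known, and the comparisons share the Veh or Dox groups. Rats of a group are separate animals.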

Additional observations from a re-analysis of the deposited data

Results flagged for a closer look

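Among 108 sets of values (36 members in 3 groups), 4 held a rat whose gap to its nearest neighbor took more of the group's range on the log2 scale than Dixon's test allows at 95%, where chance would give about 1 in 20. They were Pfkm in rat Dox + ABT 4 (6557 normalized counts, next 5579), Pfkl in rat Dox 5 (2380, next 3255), Pfkp in rat Dox + ABT 3 (2462, next 2733) and Pdha1 in rat Veh 11 (1520, next 1946). None of these genes passed in a comparison.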

How the results depend on the processing

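The number of members called in Dox relative to Veh was 1, in Dox + ABT relative to Veh 3 and in Dox relative to Dox + ABT 0, and these counts moved as follows. Down-weighting libraries by limma's arrayWeights gave 11, 16 and 3 members, among 3150, 5297 and 1612 genes. A pseudocount of 5, quantile normalization and a fit of 2 groups only each gave 1 member (Slc16a3) between Dox and Dox + ABT. In Dox + ABT relative to Veh, the kind of library as a term gave 0 and the ribosomal share as a term gave 1 (Pdk1), and of the single calls these left Pdk2 at p = 0.0184 and Pfkfb2 at p = 0.0501 with the ribosomal share. Chosen after seeing the data, the libraries without Veh 10 and 11 gave 3 and 9 members in the comparisons with Veh, among 1322 and 3046 genes, and the lower-ribosomal libraries alone gave 1 (Pdk2) between Dox and Dox + ABT, where 1281 of 15595 tested genes passed, and 3 others, Dlat, Slc16a7 and Pygb, in Dox + ABT relative to Veh, where 172 did. Leaving out 1 rat at a time gave 1 to 2, 1 to 6 and 0 to 1 members. The lowest count in Dox + ABT relative to Veh, 1, came without Dox + ABT 3, where Pdk2 and Pfkfb2 were lost and 742 genes passed, and the highest, 6 and 5, without Veh 11 (Eno1, Mdh2 and Pkm gained) and without Dox + ABT 4 (Dlat and Slc16a7 gained), where 2130 and 1832 genes passed, against 1222 with all rats. A second call (Pdk1) came in Dox relative to Veh without Veh 5, 6, 10 or 11 or Dox 7, and 1 call (Slc16a3) between Dox and Dox + ABT without Veh 5, Dox 9 or 13 or Dox + ABT 2 or 4. Replicate numbers name different rats, and only 6 of 16 same-numbered pairs correlated above 0.1 (-0.333 to 0.412). A replicate block gave 2 members in Dox relative to Veh, 3 in Dox + ABT and 0 between the 2, among 765, 1180 and 403 genes (448, 1222 and 629 without the block), and in the last the members' median turned to -0.02. The number of ratios past the adjusted threshold was 0 under both other pseudocounts (0.5 and 5), within kinds and without each rat. The other filters, trimmed mean scaling, robust variances and the highest row per gene moved no count past 1.5 times. The causes were not tested. Slc16a3 and Slc16a7 had the lowest values of the members, and the effect of depth on them was not tested. The 95% interval of 21 of 36 members in Dox relative to Veh reached past a 1.2-fold change.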
